A study of Mus musculus with 12 samples.

Results

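Solute carrier genes (symbols that begin with Slc and a digit) encode membrane proteins that move ions, sugars, amino acids, neurotransmitters and other small molecules across cell membranes. They were examined here in a profile of H3K9me2 in mouse prefrontal cortex. A region belonged to a solute carrier gene if the deposited table gave it that gene, by overlap or, where no named gene overlapped it, by the closest transcription start. On the autosomes this gave 66 genes with 179 regions in the table of FAD against WT mice, of 4243 named genes and 33490 regions in all. The table of FAD-BIX against FAD mice held 69 genes with 234 regions, of 4786 named genes and 43268 regions. Together the tables held 78 solute carrier genes, with 57 in both, 9 in the first alone and 12 in the second alone.

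H3K9me2, dimethylation of lysine 9 of histone H3, is a mark of repressed chromatin that is laid down by the methyltransferases EHMT1 and EHMT2. In the brain, solute carriers take transmitters back up from synapses, load them into vesicles, and keep the ion gradients and fuel supply of neurons and glia. Other members of the same families do comparable work in kidney, gut, liver or glands and are known mainly for those organs. The comparison therefore sets transporters known for neurons or glia beside relatives known mainly for other organs. Some listed brain transporters, such as Slc1a6 of Purkinje cells, belong to cells outside the cortex. Use of the listed genes in this tissue was not measured.

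The groups were FAD-BIX, mice with familial Alzheimer's disease mutations given BIX01294, an inhibitor of EHMT1 and EHMT2; FAD, such mice without it; and WT. All were C57BL/6 mice 5 to 6 months old, with 2 mice per group, and both a ChIP and an input library were made from each mouse, 12 in all. The mutations, the promoter of the transgene and the dose of the inhibitor are not given in the sources used here. Cortex punches mix neurons, glia and vessels, so fewer marked cells and less mark per cell cannot be told apart, and reads of genomic DNA offer no expressed marker against which to check the labelled tissue.

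Library totals were 20.45 to 26.58 M reads in ChIP and 13.92 to 23.76 M in input, of which 2290 to 3774 ChIP reads and 469 to 1005 input reads lay in solute carrier regions. The mouse labelled FAD 1 stood apart in 2 ways. At Thy1, a neuronal gene whose promoter often serves in transgenes, its ChIP and input libraries held 20 and 57 reads in the second table, against 12281 and 5518 in FAD 2 and 2826 to 8280 in FAD-BIX libraries. Its ChIP library also held 83.5 RPM (reads scaled to the library total) at 7 heart muscle genes, against 30.7 in FAD 2 and 20.5 and 19.7 in FAD-BIX mice, while inputs held 7.25 to 13.5. In the first table the sum over 6 of the 16 listed heart genes was 76.5 RPM in that ChIP library and 27.3 RPM in FAD 2, against 14.4 and 11.7 RPM in WT mice. No heart gene with a region was at 0 in that library, but Ryr2, which held 13 and 16 of the regions, was not high there. Ryr2 had 6.22 RPM in FAD 1, 13.1 in FAD 2, and 6.58 and 5.08 in WT mice. In the second table it had 7.22 RPM in FAD 1, 14.5 in FAD 2, and 10.1 and 8.86 in FAD-BIX mice. The other heart genes with a region were highest in FAD ChIP 1. At Thy1 in the first table, the 4 ChIP and 9 input reads of FAD 1 lay among the 2 to 12 of WT libraries. These Thy1 values go against its label as seen beside the other FAD and FAD-BIX mice, and whether this mouse carries the transgene cannot be told from the files. It is called by its label throughout, values that pool both FAD mice carry this doubt, and log2 fold changes without it are given for the genes whose summed ChIP counts had an unadjusted p under 0.05.

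Solute carrier regions lay mostly in introns. In the FAD versus WT table, 68.7% were centred in an intron, 2.8% in an exon, 2.2% in a UTR and 26.3% outside the gene, against 52.4%, 3.2%, 1.1% and 43.1% of the 12544 autosomal regions with a named gene. In the FAD-BIX versus FAD table the shares were 69.7%, 1.7%, 1.7% and 26.9%, against 53.1%, 3.3%, 1.2% and 42.1% of 16331 regions. Regions were narrow, with a median width of 335 bp in the first table and 326 bp in the second. Those outside their gene lay far from the closest start, at a median of 48507 bp and 52712 bp.

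Few regions lay near starts, at solute carrier genes as at all genes. Of the solute carrier regions, 4 and 2 (2.23% and 0.85%) lay within 2 kb of an annotated start. Over all regions with a gene the shares were 5.49% and 5.2%. None of the 361 RefSeq promoter windows of 286 of these genes (GRCm38.p6, 250 bases before to 50 after the start) overlapped a region in either table, while 0.503% and 0.615% of the 31396 windows of all genes did. For this reason no promoter sequence is shown. The closest region was 237 bp from the start of Slc45a2, a transporter of melanosomes, in its exon 1 (GRCm38 chr15:11000821-11001096). It held 5 and 24 ChIP reads in FAD mice and 3 and 4 in WT mice, so FAD 2 alone was high, and it was called in that library alone.

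Longer genes held more regions. Of the 362 protein-coding autosomal solute carrier genes in RefSeq, 18.2% had a region in the FAD versus WT table and 19.1% in the FAD-BIX versus FAD table, against 18.5% and 20.9% of all 20665 protein-coding genes. The median length of those with a region was 60.0 and 68.3 kb, against 25.5 and 25.1 kb of those without. Across these 362 genes the rank correlation of length with the number of regions was 0.37 and 0.40, a description only, since regions of a gene share libraries and long genes offer more room.

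**Figure D1:**
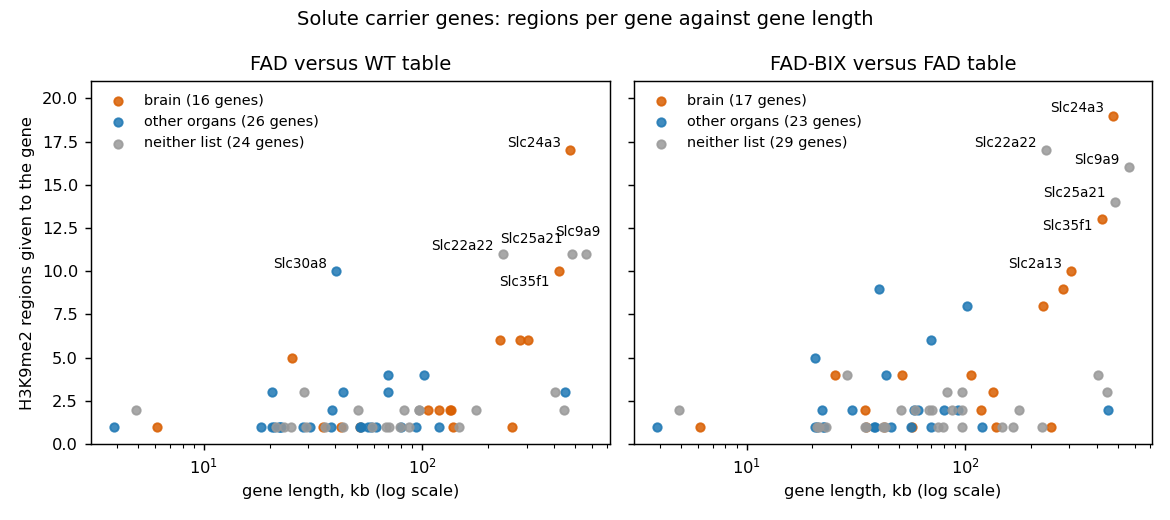
Number of H3K9me2 regions given to each solute carrier gene (vertical) against gene length in kb on a log scale (horizontal), for the FAD versus WT table (left) and the FAD-BIX versus FAD table (right). Each point is a gene, coloured by list; Slc24a3, 474.4 kb long, had the most regions in both tables, with 17 and 19, and most genes had 1 to 5.

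A larger share of brain transporters than of other organs' transporters had a region, and they were longer. Of 48 listed brain transporters, 33.3% and 35.4% had a region, against 29.9% and 26.4% of 87 listed transporters of other organs. The brain genes with a region had a median length of 135.0 and 118.6 kb, against 41.9 and 43.5 kb of the genes of other organs. Per megabase of gene, brain transporters held 11.91 and 15.88 regions inside them and transporters of other organs 8.07 and 7.52, beside 6.82 and 9.06 for all protein-coding genes. Over only those genes with a region inside, the densities were 20.64 and 28.1 per megabase for brain and 21.95 and 23.07 for other organs, so the order of the lists turned in the first table. Brain regions were also more often intronic, at 79.7% and 81.0%, against 50.0% and 43.9% of the regions of other organs' genes. These shares describe regions of 16 and 17 brain genes and 26 and 23 other genes. They are not independent of gene length, and no test was made of them.

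A few long genes carried many of the regions. Slc24a3, which encodes a potassium-dependent sodium/calcium exchanger of neurons and smooth muscle, held 17 and 19 regions over 474.4 kb. Slc35f1, an orphan member of the nucleotide sugar transporter family with high expression in brain, held 10 and 13 over 421.1 kb. Slc2a13, the proton-coupled myo-inositol transporter of neurons, held 6 and 10, and Slc4a10, a sodium-coupled bicarbonate transporter of neurons and choroid plexus, held 6 and 9. Outside the lists, Slc9a9, an endosomal sodium/proton exchanger, held 11 and 16 regions, and Slc25a21, the mitochondrial carrier of oxodicarboxylates, held 11 and 14.

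The family with the most regions was Slc22, the organic ion transporters of kidney and liver, with 26 regions in 8 genes and 38 in 9. Slc22a22, a prostaglandin transporter of mouse kidney, alone held 11 and 17. A further 15 and 20 regions lay in the cluster of 7 Slc22 genes over 0.88 Mb of chromosome 19 (GRCm38 chr19:7722244-8605116): Slc22a19, Slc22a26, Slc22a27, Slc22a28, Slc22a29, Slc22a30 and Slc22a8. These genes belong to the same family, and how similar their sequences are was not measured. Where copies are similar, reads could be shared, so separate values in the cluster are uncertain. Slc30a8, the zinc transporter of insulin granules in pancreatic beta cells, held 10 and 9 regions, 7 of them outside the gene in each table.

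Calls seldom repeated between libraries. Of the solute carrier regions, 95.5% in the first table and 96.6% in the second were called by the authors in 1 library alone, beside 31807 of the 33490 autosomal regions of the first table and 93.5% of those of the second. FAD ChIP 2 called 104 of the 179 regions and, in the other table, 104 of the 234, while over all autosomal regions it called 64.6% and 50.2%. The library labelled FAD 1 called 26 and 27 (14.5% and 11.5%), beside 11.4% and 8.8% of all autosomal regions. WT mice called 40 and 18 (22.3% and 10.1%), beside 17.4% and 12.2%. FAD-BIX mice called 51 and 60 (21.8% and 25.6%), beside 22.4% and 25.9%. For brain genes the share called in FAD ChIP 2 was 50.0%, against 60.0% for genes of other organs, in the FAD versus WT table, and 39.3% against 52.6% in the other. WT ChIP 1 alone called 18 of the 64 brain regions (28.1%) and 8 of the 50 regions of other organs' genes, beside 15.3% of all regions. Region sets thus lean on 1 library, and which library called a region is part of what is then compared.

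ChIP over input was above 0 at most solute carrier genes in every mouse. The regions were called on these same ChIP libraries, so this enrichment is a description and no test. The log2 ratio of ChIP to input RPM, with 1 read added to each, had a median over the 66 genes of 1.33 and 2.38 in FAD mice and 1.09 and 0.69 in WT mice. Over all 4243 genes it was 1.20 and 2.34 in FAD mice and 1.07 and 0.82 in WT mice. In the second table the 69 genes had 0.83 and 1.63 in FAD-BIX mice and 1.12 and 2.01 in FAD mice, and all 4786 genes had 1.07 and 1.66 in FAD-BIX mice and 1.15 and 2.16 in FAD mice. FAD 2 was the highest mouse in both tables, for these genes and for all genes alike. Its ChIP library also called the most regions in both, and the part of the choice of regions in that order was not tested.

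Brain transporters had a higher median ChIP over input than transporters of other organs in every mouse of the first table. In FAD mice the brain median was 1.76 and 2.47, against 1.16 and 2.32 for genes of other organs, and in WT mice 1.43 and 1.21, against 0.93 and 0.86. The brain list thus exceeded the other list by 0.38 ± 0.31 in FAD and 0.43 ± 0.11 in WT mice (log2, SD, n = 2 each). These differences overlapped between the genotypes, at 0.60 and 0.16 in FAD mice and 0.50 and 0.35 in WT mice.

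In the second table the order of the lists held in FAD-BIX mice and not in both FAD mice. The brain median was 1.66 and 1.88 in FAD-BIX mice, against 0.87 and 1.27 for genes of other organs. In FAD mice it was 1.15 and 1.86, against 1.06 and 2.54. Brain minus other organs was therefore 0.79 and 0.61 in FAD-BIX mice, and 0.09 and -0.68 in FAD mice, and the mice of the groups did not overlap. With 2 mice against 2, an exact permutation test cannot go below p = 0.333, so none was run, and the same FAD mice gave 0.60 and 0.16 over the regions of the other table. The value in FAD mice thus moved with the set of regions. The lists also differed in which library called their regions. FAD-BIX ChIP 1 alone called 27.4% of brain and 15.8% of other organs' regions, beside 19.4% of all autosomal regions. FAD ChIP 2 alone called 36.9% and 49.1%, beside 44.9%. The shares were 20.2% and 19.3% for FAD-BIX ChIP 2 alone, beside 22.3% of all autosomal regions. For FAD ChIP 1 alone they were 13.1% and 12.3%, beside 6.9%. The part of these calls in brain minus other organs was not tested.

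**Figure D2:**
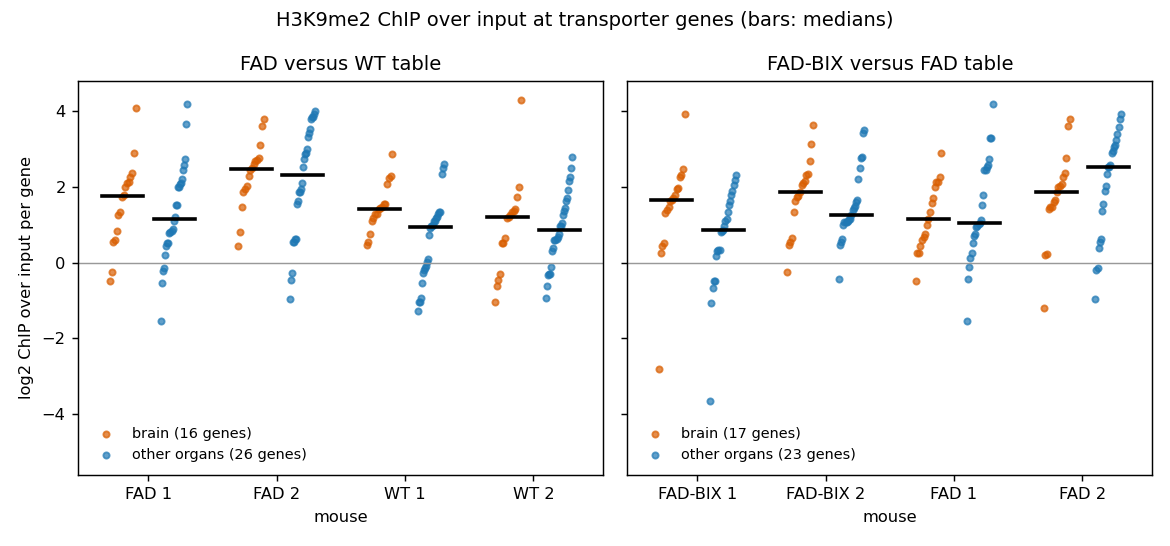
Log2 ratio of ChIP to input per gene (vertical) in each mouse (horizontal), for brain transporters (orange, left of each pair) and transporters of other organs (blue), with medians as black bars. Brain medians were above the other list in the FAD and WT mice of the left panel and in the FAD-BIX mice of the right panel, where FAD 2 had 1.86 for brain and 2.54 for other organs.

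Input libraries at the same genes give the background measured without the antibody. Of 1280 genes with enough input reads, none passed between FAD and WT mice in edgeR's quasi-likelihood test with Benjamini-Hochberg adjustment, while 2.81% were higher and 2.34% were lower without adjustment (p under 0.05). Of the 20 solute carrier genes among them, 1 was higher and 1 lower at that level. Slc7a12, an amino acid transporter of kidney, had 9 and 8 input reads in FAD mice, against 1 and 0 in WT mice, and Slc22a27 had 3 and 5 in FAD mice, against 24 and 17 in WT mice. Slc22a27 ChIP over input was 2.20 and 3.33 in FAD mice and 0.01 and 0.64 in WT mice, and the gene is named here for its input. Its ChIP RPM was 1.24 and 3.94 in FAD mice and 1.02 and 1.58 in WT mice. The log2 fold change was 0.29 ± 0.40 on the TMM scale, and 1.59 with library totals and without FAD 1. The median of that last fit was 1.04 over all genes and 1.23 over transporters of other organs. The part of the input in the Slc22a27 ratio was not tested.

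Between FAD-BIX and FAD mice, none of 1245 genes passed the same test on inputs (1.2% higher, 2.17% lower without adjustment) and 0 of 23 solute carrier genes did so even without it. The lists nevertheless lay on opposite sides. All 9 brain transporters tested had an input log2 fold change below 0, with a median of -0.46, and 6 of 7 transporters of other organs had one above 0, with a median of 0.22, beside 0.00 over all genes. By their medians, inputs in FAD-BIX relative to FAD mice lay below at brain genes and above at other organs' genes, in the direction that raises the brain list over the other in the ratio. The part of the input in that ratio was not tested.

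FAD and WT mice were next compared on ChIP counts summed per gene. Of 3660 genes tested, 0 passed in the quasi-likelihood test of edgeR (adjusted p under 0.05), solute carrier genes included. At an unadjusted p under 0.05, 1.39% of all genes were higher and 3.31% lower in FAD mice, and of the 51 solute carrier genes tested 2 were higher and 1 lower; the other 15 of the 66 had too few reads. The smallest adjusted p among them in edgeR was 0.921. Log2 fold changes of solute carrier genes had a median of 0.08, with 28 above and 23 below 0, beside 0.00 over all genes.

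By list, the 13 brain transporters tested had a median log2 fold change of -0.13, with 5 above and 8 below 0. The 18 transporters of other organs had 0.17, with 11 above and 7 below. Scaling to library totals in place of TMM (edgeR's trimmed mean of M values) moved the median of all genes to 0.59, that of brain genes to 0.42 and that of other organs' genes to 0.77, so that the brain median was above 0 and still below that of all genes. Without the library labelled FAD 1 the TMM medians were -0.37 for brain and 0.19 for other organs; without WT 2 they were -0.11 and 0.37. Without FAD 2 they were 0.03 and -0.01, and without WT 1 -0.01 and -0.02. The gap between the lists was thus wider without FAD 1 or WT 2 and close to 0 without FAD 2 or WT 1.

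Slc7a11 encodes the cystine/glutamate exchanger of astrocytes. Its 2 regions summed to 1.20 and 2.5 ChIP RPM in FAD mice and 0.327 and 0.602 RPM in WT mice, with a log2 fold change of 1.35 ± 0.51 (edgeR, SE, n = 2 each, unadjusted p = 0.0221, adjusted p = 0.921). Both FAD mice were above both WT mice. Both regions were called in FAD ChIP 2 alone, so the height of FAD 2 is part of how they were chosen. FAD ChIP 1 called neither, and the part of the choice in the order was not tested. Without FAD 1 the Slc7a11 value was 1.37 (edgeR, adjusted p = 0.632). With library totals as well it was 2.41 (edgeR, adjusted p = 0.00925), in a fit whose median was 1.04 over all genes and 1.06 over solute carrier genes. Inputs there were 0.627 and 0.331 RPM in FAD mice and 0.0842 and 0.346 RPM in WT mice, so the FAD 1 input was high as well. Slc26a5, which encodes prestin, the motor protein of outer hair cells, had 0.722 and 0.769 RPM in FAD mice and 0.0817 and 0.150 RPM in WT mice, with a log2 fold change of 2.14 ± 0.81 (unadjusted p = 0.0237). Its groups did not overlap, but its single region was called in FAD ChIP 1 alone, so it entered the table through the group where it is high, and nothing is read from that. Without FAD 1 the log2 fold change of Slc26a5 was 1.64 (edgeR, adjusted p = 0.887), and 2.67 with library totals as well (edgeR, adjusted p = 0.197).

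Slc22a28, a liver and kidney organic anion transporter of mice, had 0.722 and 2.40 RPM in FAD mice and 2.57 and 2.29 RPM in WT mice, with a log2 fold change of -1.33 ± 0.37 (edgeR, unadjusted p = 0.00453, adjusted p = 0.921). In RPM the FAD 2 value lay between the WT values, and only the library labelled FAD 1 was far below; the log2 fold change was -1.06 without FAD 1 and -0.02 with library totals as well. Slc8a3, a sodium/calcium exchanger of neurons and muscle, had 0.722 and 0.769 RPM in FAD mice and 1.55 and 0.790 RPM in WT mice (-1.15 ± 0.55, unadjusted p = 0.0602). Only WT 1 was clearly higher there, and the input ran the other way, at 0.836 and 0.530 RPM in FAD mice and 0.295 and 0.519 RPM in WT mice.

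The remaining genes with the smallest p were spread over roles. Slc6a19, the neutral amino acid transporter of gut and kidney, was at 1.34 ± 0.75 on the log2 scale, Slc12a2, the sodium/potassium/chloride importer NKCC1, at 1.08 ± 0.75, and Slc2a12, a glucose transporter of muscle and fat, at 0.98 ± 0.69. On the low side, Slc39a12, a zinc importer of brain, was at -0.80 ± 0.47, Slc4a10 at -0.45 ± 0.36 and Slc35f1 at -0.41 ± 0.24. Those 3 brain genes had 0.59, 0.60 and 0.36 as ratios of ChIP to input, beside a median of 0.86 over all genes. Slc4a10 and Slc35f1 had 0.02 and 0.19 with library totals, beside 0.59 over all genes. Their sign thus depends on the scale, and they lay below the median of all genes on each. None of these 6 had an unadjusted p under 0.05.

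**Figure D3:**
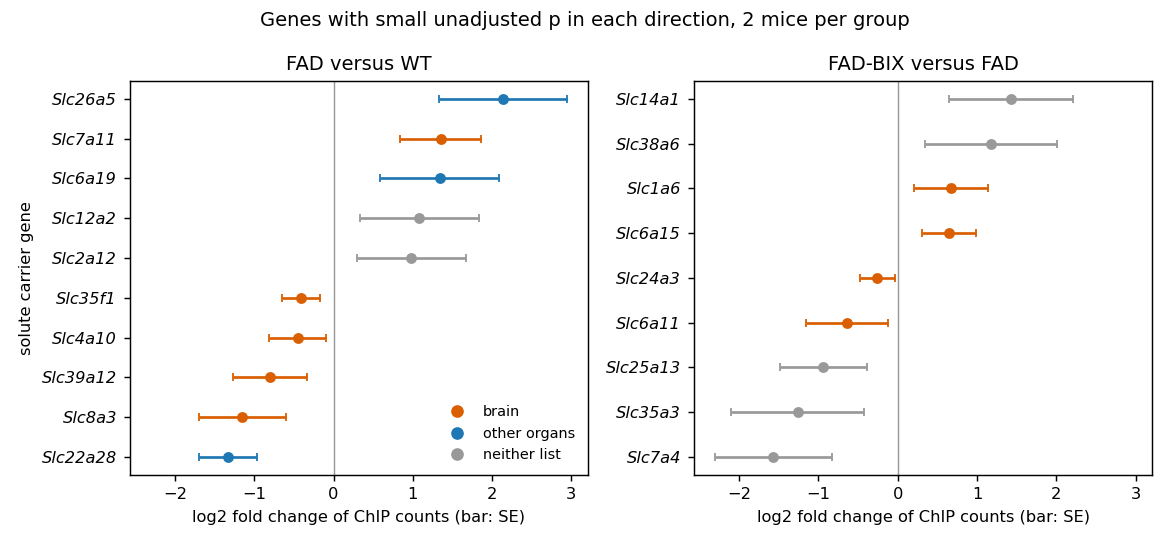
Log2 fold change of summed ChIP counts (horizontal, bars are SE from edgeR) of solute carrier genes among the 5 with the smallest unadjusted p in each direction, for FAD versus WT (left, 10 genes) and FAD-BIX versus FAD (right, 9 genes), 2 mice per group. Colours give the list; Slc26a5 at 2.14 and Slc7a4 at -1.57 lie farthest from 0 in their panels, and no gene passed the adjusted threshold.

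No difference was detected at the long brain genes in either comparison. Slc24a3 had 9.46 and 13.8 ChIP RPM in FAD mice and 9.27 and 8.05 RPM in WT mice, with a log2 fold change of -0.13 ± 0.24 on the TMM scale. That sign turned with the scale, since mean RPM was 11.6 in FAD and 8.66 in WT mice. The log2 fold change was 0.42 with library totals and 0.52 as ChIP over input, beside medians of 0.59 and 0.86 over all genes. In the second table Slc24a3 had 9.83 and 8.27 RPM in FAD-BIX mice and 10.3 and 15.7 RPM in FAD mice (-0.26 ± 0.22). In both tables FAD 2 was the highest mouse and the other 3 lay close together. Slc2a13 gave 0.33 ± 0.29 between FAD and WT mice and -0.01 ± 0.25 in the treatment comparison. Slc35f1 gave 0.09 ± 0.24 in the second comparison and Slc4a10 0.29 ± 0.28. None of these differences exceeded the spread the test allows for, with adjusted p from edgeR above 0.05 for each gene.

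FAD-BIX and FAD mice were compared in the same way. Of 3999 genes tested, 0 passed in edgeR after adjustment; 2.95% were higher and 1.95% lower without it (p under 0.05). Of 58 solute carrier genes tested, 0 were higher and 1 was lower at that level, and 11 of the 69 had too few reads. The median log2 fold change was -0.02 over the solute carrier genes, -0.01 over 13 brain transporters and -0.04 over 21 transporters of other organs, beside -0.01 over all genes. Library totals gave -0.29, -0.27, -0.35 and -0.28 for the same 4 sets. The comparison shares its FAD libraries with the other one, so the 2 sets of values are not independent.

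Slc7a4, a member of the cationic amino acid transporter family without a settled substrate, had 0.440 and 0.182 ChIP RPM in FAD-BIX mice and 0.962 and 1.20 RPM in FAD mice, with a log2 fold change of -1.57 ± 0.74 (edgeR, unadjusted p = 0.0444, adjusted p = 0.861). Both FAD-BIX mice were below both FAD mice. However, 1 of the 2 Slc7a4 regions was called in FAD ChIP 1 alone and the other in FAD ChIP 2 alone. The part of that choice in the order was not tested. Without FAD 1 the Slc7a4 value was -1.28 (edgeR, adjusted p = 0.927), and -1.94 with library totals as well (edgeR, adjusted p = 0.343). Both regions lay outside the 4.9 kb gene.

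Other genes at the top of that comparison were Slc14a1, the urea transporter of red cells and kidney vessels (1.43 ± 0.78), and Slc38a6, an amino acid transporter (1.18 ± 0.83). Slc1a6, the glutamate transporter EAAT4 of Purkinje cells, was at 0.67 ± 0.47 and Slc6a15, a neutral amino acid transporter of neurons, at 0.65 ± 0.34. On the low side stood Slc35a3, the Golgi transporter of UDP-N-acetylglucosamine (-1.26 ± 0.84), Slc25a13, the mitochondrial aspartate/glutamate carrier citrin (-0.94 ± 0.55), and Slc6a11, the GABA transporter GAT-3 of astrocytes (-0.64 ± 0.52). All are log2 fold changes with SE from edgeR, none with an unadjusted p under 0.05.

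Regions were then tested one by one. Of 27399 regions tested between FAD and WT mice 0 passed; without adjustment 0.894% were higher and 5.02% lower (p under 0.05), and of 138 solute carrier regions 3 were higher and 5 lower. Between FAD-BIX and FAD mice 0 of 30797 passed, with 4.12% higher and 1.16% lower, and of 160 solute carrier regions 6 were higher and 2 lower. All 16 of these solute carrier regions had been called by the authors in the group where they were higher and in no library of the other group. Over all regions the same was so for 245 of 245 higher and 1332 of 1376 lower between FAD and WT mice. The choice of regions is thus tied to their direction, and the unadjusted p-values of regions take no account of it. How far that choice moved the p-values was not tested.

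A region outside Slc7a11, given to it as the gene with the closest start (GRCm38 chr3:50482177-50482490), was among them in both comparisons. It held 0 and 5 ChIP reads in FAD-BIX mice, 17 and 22 in FAD mice, and 2 and 3 in WT mice. FAD mice were above both other groups without overlap, and the region was called in FAD ChIP 2 alone. Its log2 fold change was 2.51 ± 0.82 in FAD relative to WT mice and -2.49 ± 1.09 in FAD-BIX relative to FAD mice (edgeR, adjusted p = 0.826 and 0.889). Within the gene, another Slc7a11 region, in the 3′ UTR (chr3:50369905-50370484), held 38 and 14 reads in FAD-BIX mice and 8 and 26 in FAD mice, which overlap. Summed over its 3 regions in that table Slc7a11 had 2.30 and 1.23 RPM in FAD-BIX mice and 1.52 and 3.75 RPM in FAD mice (-0.24 ± 0.39), so the gene as a whole did not follow the 1 region.

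Regions of 1 gene could point in opposite directions. In Slc2a13, a region in intron 3 (chr15:91422732-91423076) held 6 and 0 ChIP reads in FAD-BIX mice and 20 and 25 in FAD mice. Another in the same intron (chr15:91429435-91429737) held 11 and 26 in FAD-BIX mice and 5 and 9 in FAD mice. The log2 fold changes were -2.44 ± 0.93 and 1.83 ± 0.71 (edgeR, adjusted p = 0.889 each). The first was called in FAD ChIP 2 and the second in FAD-BIX ChIP 2. Over the 9 tested regions of the gene the median was 0.21, with 5 above and 4 below 0. In Slc35f1, 9 tested regions ran between -2.27 and 1.33 for FAD against WT, with 4 above and 5 below 0.

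At the heart-type adenine nucleotide translocator Slc25a4 (ANT1, which exchanges ADP and ATP across the inner mitochondrial membrane), 1 library decided the value. Its region in the 3′ UTR (GRCm38 chr8:46207356-46207604) held 0 and 8 ChIP reads in FAD-BIX mice, 82 and 4 in FAD mice, and 0 and 2 in WT mice. The 82 reads, 3.29 RPM, came from the library labelled FAD 1; its input held 7, and the other inputs 0 to 8. The heart muscle sum was highest in the same library, as given above, and its part in this value was not tested. Slc25a4 did not reach the read count needed for the test. Without that filter its log2 fold change was 5.18 in FAD relative to WT mice (edgeR, adjusted p = 0.82) and -3.29 in FAD-BIX relative to FAD mice (edgeR, adjusted p = 0.000178). In the other FAD mouse the count was 4, within the 0 to 8 of the FAD-BIX and WT mice.

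Slc30a4, the zinc transporter whose loss gives zinc-poor milk in mice, had the only solute carrier region called in 3 libraries, in its 3′ UTR (GRCm38 chr2:122681335-122682323). ChIP reads were 124 and 26 in FAD mice and 89 and 107 in WT mice, beside inputs of 27 and 21 in FAD mice and 44 and 8 in WT mice. FAD 2 was the low mouse and FAD 1 was above both WT mice, so the groups overlapped. The log2 fold change was -0.57 ± 0.63 (edgeR, adjusted p = 0.93). Leaving out the library labelled FAD 1 gave -2.65 ± 0.49 (edgeR, adjusted p = 3.68e-05), and leaving out FAD 2 gave 0.30 ± 0.37, so the value is set by which FAD mouse is kept. In the other table a narrower 3′ UTR region that overlaps this one held 36 and 43 reads in FAD-BIX mice and 57 and 17 in FAD mice (gene log2 fold change 0.31 ± 0.51).

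**Figure D4:**
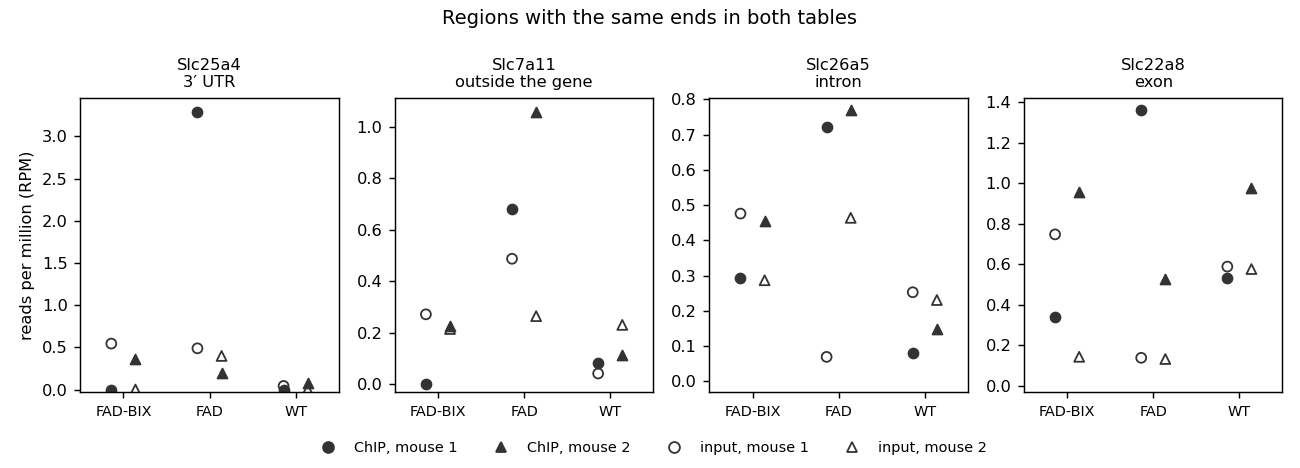
ChIP (filled) and input (open) RPM at 4 solute carrier regions with the same ends in both tables, by group (horizontal), circles for mouse 1 and triangles for mouse 2; each panel has its own vertical scale. FAD 1 alone is high at Slc25a4 (3.29 RPM), both FAD mice are high at the region outside Slc7a11 and at Slc26a5, and mice of all groups overlap at Slc22a8.

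The regions with identical ends in both tables allow the 3 groups to be set side by side. There were 119 of them, in 54 solute carrier genes. Their ChIP reads summed to 54.4 and 49 RPM in FAD-BIX mice, 69.3 and 124 RPM in FAD mice, and 47.3 and 52.7 RPM in WT mice. In the 41 brain regions the sums were 19.4 and 16 RPM in FAD-BIX mice, 25.1 and 43.5 RPM in FAD mice, and 17 and 19.6 RPM in WT mice. The 34 regions of other organs' genes gave 15.6 and 15.9 RPM, 21.5 and 36.7 RPM, and 13.2 and 15.4 RPM in FAD-BIX, FAD and WT mice. FAD mice were highest in all 3 sets, but a region has the same ends in both tables mainly where a FAD library, which both tables share, called it. The part of that choice in the order was not tested, so the order is not read as a result about FAD mice.

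The authors' deposited table gives its own p-value for each region. By that p, of the 179 solute carrier regions in the authors' deposited table, 6 were higher and 0 lower in FAD than in WT mice at p under 0.05, which is 3.35%, against 2.66% of all autosomal regions. Between FAD-BIX and FAD mice the authors' deposited table had 2 higher and 4 lower of 234, which is 2.56%, against 2.1% of all. The smallest q-value of a solute carrier region in the authors' deposited table was 1 in both comparisons.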

How the data were processed

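H3K9me2 ChIP-seq of mouse prefrontal cortex was analysed from 2 deposited tables of regions (FAD versus WT, FAD-BIX versus FAD). Alignment and peak calling involved BWA 0.7.12 and MACS2 2.1.0, with FastQC and Trimmomatic, per the submitters' processing notes; roles and settings are not given in the sources used here. The notes name the build mm9, but 99.8% of genes matched by symbol in each table overlapped their RefSeq position in GRCm38.p6, as did all 55 and 59 solute carrier genes matched, so coordinates are given as GRCm38. Whether their first base counts as 0 or 1 is not given.

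Per the file headers, the deposited counts are reads per region and library, and the deposited RPM is a library constant multiplied by 1 more than the count (largest relative deviation 4.75e-06), which gave the library totals. RPM printed here is count over total. The deposited log2 fold change, p-value and q-value per region are the authors' own. Marks show the library in which the authors called each region. The 8 columns of fold enrichment per mouse, a ratio made by the authors, were not used. Regions were called per library and then joined.

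One row per region was kept, on autosomes. Counts were summed per gene and tested by quasi-likelihood in edgeR 4.0.16 under R 4.3.3 (no replicate block, TMM, the tool's default low-count filter, Benjamini-Hochberg, threshold 0.05); the SE is the absolute log2 fold change over the square root of F. Each fit held the 2 groups of its table. The test sets each difference against a spread estimated from 2 mice per group, with information shared across all genes or regions of the fit. Steps were tested on simulated data. The members, the lists and the tests were chosen with earlier results of these data known. Named genes are those with an adjusted p under 0.05, in each direction the 5 of smallest p, the 6 with the most regions, the 4 of each list with the highest counts, those with a region near a start or in an exon or UTR, and those with the highest ChIP over input (34 per table, of which a selection is given; 1 gene of the rule is not reported here). Alternatives were DESeq2 1.42.0, its size factors, library totals, no filter, a replicate block, each library left out, ChIP over input in limma 3.58.1, overlapping genes only, regions called in at least 2 libraries, and a pseudocount of 5 in place of 1. Intervals and SE cover these libraries only, and changes shared by the whole genome cannot be seen on relative scales. Same-numbered mice are not stated to be pairs, and their deviations were not correlated (0.07 and -0.04 over genes).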

Additional observations from a re-analysis of the deposited data

How the results depend on the processing

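Every setting below changes counts of 0 calls, in edgeR unless named, and the cause was not tested. For FAD against WT, genes called were 1 with DESeq2, 3 with library totals, 2 with the replicate block, 1 with overlapping genes only, and 13 to 24 with 1 library left out; solute carrier genes called were 1 in each fit with a library left out (Slc30a4 without the library labelled FAD 1, Slc25a4 otherwise). Library totals without FAD 1, added after seeing the data, called 561 genes, 10 of them solute carriers. Regions called were 5 with library totals, 11 with totals without FAD 1, and 0 to 114 with 1 library left out (solute carrier regions 0 to 1). Input genes called were 1 with library totals, 1 with no filter, 1 with the replicate block and 1 to 10 with 1 library left out. For FAD-BIX against FAD, genes called were 4 with library totals, 12 with no filter (1 solute carrier, Slc25a4), 6 with the replicate block, 80 with totals without FAD 1, and 0 to 22 with 1 library left out (solute carriers 0 to 1). Regions called were 5, 15 (1 solute carrier), 4 and 7 in these settings and 13 to 23 with 1 library left out (solute carriers 0 to 1). Input genes called were 0 to 1 with 1 library left out. In each leave-out the lone mouse is assumed to vary like the other group. For FAD against WT, the fit with totals and without FAD 1 held 4181 genes, 65 of them solute carriers. Its median log2 fold change was 1.04 over all genes and 1.06 over solute carrier genes. By these medians solute carriers were shifted much as all genes were. Brain minus other organs was 0.59 with overlapping genes only in WT mice and 0.55 with a pseudocount of 5 in FAD-BIX mice; leaving out a mouse gave 0.16 to 0.60 in FAD, 0.35 to 0.50 in WT, 0.61 to 0.79 in FAD-BIX and -0.68 to 0.09 in FAD of the second table. With regions called in at least 2 libraries too few genes were left for this value.

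Log2 fold changes turned sign, for FAD against WT, at Slc30a4 (-2.65 to 0.30 with 1 library left out, above 0 without FAD 2), Slc24a3 (0.42 with library totals, 0.67 also without FAD 1, 0.52 as ChIP over input), Slc35f1 (0.19 with library totals, 0.56 also without FAD 1, 0.36 as ChIP over input), Slc39a12 (0.59 as ChIP over input), Slc4a10 (0.02 with totals, -1.08 to 0.01 with 1 library left out, 0.60 as ChIP over input), a region of Slc22a22 (0.99 as ChIP over input) and one of Slc25a21 (0.10 with totals, 0.70 also without FAD 1, 0.41 as ChIP over input). For FAD-BIX against FAD they turned at Slc24a3 (0.27 for regions called in at least 2 libraries), Slc30a4 (-0.48 to 1.84 with 1 library left out, -0.06 as ChIP over input) and a region of Slc9a9 (-0.03 as ChIP over input). Over all genes, medians for FAD against WT were 0.59 with library totals, 1.04 also without FAD 1, and 0.86 as ChIP over input. The replicate block made no solute carrier call. The low read counts of the regions and 2 mice per group limit every value.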

Other observations

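ChIP signal was uneven between mice at further solute carrier genes. Slc16a4, a monocarboxylate transporter relative, had 1.37 and 0.136 ChIP RPM in FAD-BIX mice and 0.321 and 0.721 RPM in FAD mice. Slc25a36, a mitochondrial pyrimidine nucleotide carrier, had 0.160 and 1.06 RPM in FAD mice and 0.245 and 0.263 RPM in WT mice. In both genes 1 mouse was above the other 3, and each gene had 1 region, outside it. Slc6a5, the glycine transporter GlyT2, had 6 and 13 ChIP reads in FAD-BIX mice and 6 and 2 in FAD mice at its 3′ UTR, with inputs of 0 and 0 in FAD-BIX mice and 2 and 4 in FAD mice. Slc16a4 and Slc25a36 were named for their high ChIP over input in 1 library, so that this value is part of the choice, and Slc6a5 for its 3′ UTR region.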
